A study of Mus musculus with 3 samples.

Results

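The Mrc1-positive valve macrophages described here are 370 of the 16383 cells in a matrix of gene expression from mouse mitral valves. They were selected on 5 genes. A cell was a member when it held at least 1 unique molecular identifier (UMI, the tag that marks a captured transcript) of Ptprc, which encodes the leukocyte antigen CD45, and at least 1 of Mrc1, which encodes the mannose receptor CD206, and when it held UMIs of fewer than 2 of the fibroblast genes Prrx1, Col3a1 and Dpt. Members made up 2.26% of cells (95% exact binomial interval 2.04 to 2.50). The values of these 5 genes chose the members, so they are given as a description, and the 5 genes were left out of the genes that were compared.

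The 3 samples listed with the matrix are mitral valves of B6.129-Fbn1tm2Rmz/J mice, homozygous for the mgR allele that lowers fibrillin-1, with libraries made by the 10x Genomics 3' v3 protocol. No treatment is given in the labels, and the study describes its valve cells as taken at 12 weeks of age. The barcodes carry no mark of sample, animal or genotype. The study also used wild-type valves and, for its nuclei, mgR mice treated with rapamycin. Genotypes and treatments were therefore not compared, and all values come from 1 pooled sample without a test or a spread between animals. The labels leave unclear whether cells or nuclei were captured, and the word cell is used here for a barcode.

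Macrophages are phagocytes that settle in heart valves as in other tissues, where they take up dying cells and debris, present antigen and exchange signals with interstitial and endothelial cells. The mannose receptor binds glycoproteins and collagen fragments for uptake, and it marks many tissue-resident macrophages. Receptors for the constant part of antibodies, sialic acid receptors and receptors for dying cells are further parts of the same uptake machinery.

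Of the 3264 genes that could be used, 1224 lie on chromosome 1, 1465 on chromosome 2 and 555 on chromosome 3, and 20 were not matched to the annotation. Genes elsewhere in the genome, among them the macrophage genes Adgre1, Csf1r, Cd68, Cd163, Lyz2, C1qa, Cx3cr1, Ccr2 and Lyve1, were not analysed here. Members had a median of 5564.5 UMIs per cell and 2292084 UMIs in sum. They were compared with the 15659 cells without Ptprc (median 5337 UMIs) and with the 311 cells that held Ptprc but no Mrc1 (median 5345 UMIs). The second of these groups was not limited by its fibroblast genes, and 263 of its cells held fewer than 2 of them. A level is the number of UMIs of a gene summed over the cells of a group per 10000 UMIs of the same cells, with a 95% exact Poisson interval where given. These intervals and the binomial ones cover counting error only. A gene was compared when the higher of its levels amounted to at least 10 UMIs in the smaller group, and a ratio of levels of at least 2 or at most 0.5 was called higher or lower.

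The barcodes stood in 2 alphabetical runs, which the labels do not explain. The first run held 280 members among 14222 cells, or 1.97% (1.75 to 2.21). The second held 90 among 2161, or 4.16% (3.36 to 5.09). Of the barcodes, 11 were found in both runs, and 2 members carried such a barcode. Values within each run are given beside those that the results turn on.

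Most members held more than the smallest number of UMIs that the selection asked for. Their median was 8 UMIs of Mrc1 and 6 of Ptprc. The level of Mrc1 was 19.1 in members (20.8 and 14.6 in the runs) and 0.0527 in cells without Ptprc, and that of Ptprc was 13 (12.3 and 14.9) against 11.4 in Ptprc cells without Mrc1. Prrx1, Col3a1 and Dpt stood at 0.0175, 0.275 and 0.0916 in members and at 0.960, 1.99 and 0.816 in cells without Ptprc. Mrc1 stood at 1 UMI in 36 members, Ptprc in 35, and both in 3. Just outside the selection, 187 cells without Ptprc held Mrc1, and 143 of those held 1 UMI of it. Another 43 cells held Ptprc and Mrc1 together with 2 or 3 fibroblast genes. The level of Siglec1 was 0.738 in the 318 members with none of the fibroblast genes, 0.381 in the 52 members with 1 of them, 0.369 in the 31 cells outside with 2 and 0.189 in the 12 cells outside with 3. Spi1 went from 2.52 to 1.47, 1.14 and 1.14 over the same groups, and Fcgr1 stood at 0.487, 0.557, 0.332 and 0.0946. The collagen gene Col5a2 rose from 0.518 to 2.37, 6.09 and 9.65, and Prg4 was at 0.395, 3.2, 11.8 and 5.77.

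The label was checked on the markers that the selection did not use, Fcgr1 and Siglec1. Fcgr1 (chromosome 3, 96282909 to 96293969, minus strand, GRCm38) encodes the high-affinity receptor for immunoglobulin G. Its level was 0.497 in members (0.410 to 0.597), 0.00130 in cells without Ptprc (0.000671 to 0.00227) and 0.204 in Ptprc cells without Mrc1 (0.143 to 0.283). Within the first run the same 3 levels were 0.546, 0.00103 and 0.228, and within the second 0.368, 0.00276 and 0.156. Siglec1 (chromosome 2, 131069220 to 131086765, minus strand) encodes sialoadhesin, the sialic acid receptor CD169. It stood at 0.685 in members (0.582 to 0.801), 0.00335 in cells without Ptprc (0.00228 to 0.00476) and 0.0341 in Ptprc cells without Mrc1 (0.0125 to 0.0742). Within the first run its levels were 0.797, 0.00398 and 0.0422. Within the second they were 0.384, 0 and 0.0174, and 3 UMIs in the group at 0 would be a level of 0.00207. Members were thus the highest of the 3 groups for both markers in both runs.

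Neither marker was found in most members. With each cell thinned to 2000 UMIs, Fcgr1 was found in 8.83% of members (6.08 to 12.3) and Siglec1 in 11.4% (8.27 to 15.2), against 0.0416% and 0.0623% of the cells without Ptprc, a group that should lack both. Without thinning the shares of members were 20.5% and 25.9%, against 0.0702% and 0.140%. Thinning left out the cells under 2000 UMIs, 19 of them members and 1220 of them cells without Ptprc.

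**Figure D1:**
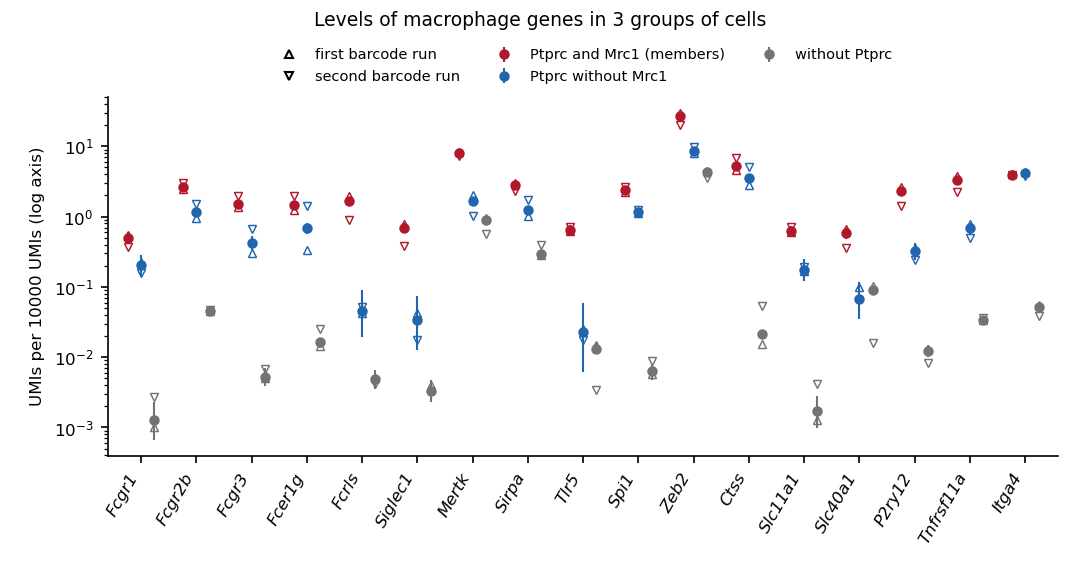
Levels of 17 genes (UMIs per 10000 UMIs, log axis) in members, in Ptprc cells without Mrc1 and in cells without Ptprc. Filled points are levels over both barcode runs with 95% exact Poisson intervals, open triangles are levels within each run, and levels of 0 are not drawn. Members are the highest group for 16 of the genes, while Itga4 is at 3.97 in members and 4.15 in Ptprc cells without Mrc1.

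Against the cells without Ptprc, members were set apart by receptors for antibodies, by signaling genes of leukocytes and by interferon-response genes, and they held less of the transcripts of fibroblasts and endothelial cells. Of 2203 genes compared, 380 were higher in members (17.2%) and 486 were lower (22.1%), and the median ratio over the compared genes was 0.929. A ratio of at least 10 was found for 152 genes and of at least 100 for 58. In both barcode runs taken alone, 329 of the higher and 332 of the lower genes passed the same ratio.

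Fc receptors bind antibody-coated particles and start their uptake. Of the 6 compared genes of this list, 6 were higher, with a median ratio of 239 against 0.929 over the compared genes. Besides Fcgr1 these were Fcgr3 at 1.52 against 0.00530, the inhibitory receptor Fcgr2b at 2.64 against 0.0456, Fcgr4 at 0.166 against 0.000866, the shared signaling chain Fcer1g at 1.46 against 0.0162, and the Fc receptor-like scavenger receptor Fcrls at 1.69 against 0.00487. The genes of the Fcgr family are alike in sequence, so the split of UMIs among them is uncertain. Fcrla and Fcrl5 had too few UMIs to be compared, and Fcer1a, Fcamr and Pigr were not analysed here.

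Among scavenger, lectin and phagocytic receptors, 9 of 14 compared genes were higher and 3 lower, with a median ratio of 9.26. Mertk, the receptor with which macrophages bind dying cells, stood at 7.94 in members (7.58 to 8.32) against 0.885 (0.866 to 0.904). Sirpa, which receives the signal that spares healthy cells from uptake, was at 2.84 against 0.298, and Tlr5, the receptor for bacterial flagellin, at 0.641 against 0.0132. Sirpb1a, Sirpb1b and Sirpb1c were higher too, but their sequences are nearly the same and their counts cannot be told apart with certainty. Pla2r1, Cubn and Cd93 were the 3 lower genes. Marco stood at 0 in members, where 3 UMIs would be a level of 0.0131, and Scarb2 was not analysed here.

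The transcription factors of the macrophage list were higher in 9 of 14 compared genes and lower in 2, with a median ratio of 3.78. Spi1, which encodes PU.1, the factor that directs the myeloid fate, was at 2.36 in members (2.17 to 2.57) against 0.00628 (0.00477 to 0.00811). Within the runs the members' level of Spi1 was 2.27 and 2.61. Zeb2, which helps macrophages keep their identity, was at 26.9 against 4.32. Nfatc2, Nfe2l2, Stat4, Batf3 and Cebpb were among the other higher genes. Of these, Stat4 also stands in the list of T and NK cell markers and Batf3 in that of dendritic cell markers. Stat4 was at 0.214 in members and at 1.22 in the 263 Ptprc cells without Mrc1 that held fewer than 2 fibroblast genes. Nfkb1, Lef1 and Bach1 were not analysed here.

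Genes of the lysosome and of antigen processing were mixed, with 6 of 13 higher, 1 lower and a median ratio of 1.68. The protease cathepsin S, encoded by Ctss, which trims the chain that guards class II molecules, stood at 5.21 in members against 0.0215. Slc11a1, a metal transporter of the phagosome, was at 0.633 against 0.00173, and Ctse at 0.0960 against 0.000866. The lower gene was Ctsk, a collagen-degrading cathepsin, at 0.170 against 0.488. Lamp5, Tap2, Psap, Mcoln2, Mcoln3 and Tpp1 were not analysed here.

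Iron and lipid genes were higher in 9 of 13 and lower in 3, with a median ratio of 3.01. Slc40a1 encodes ferroportin, through which macrophages give iron back. It was at 0.576 in members (0.482 to 0.683) against 0.0898 (0.0838 to 0.0961), with members at 0.660 and 0.352 in the runs and cells without Ptprc at 0.104 and 0.0159. Blvra, which works on the products of heme breakdown, was at 0.497 against 0.139, Nceh1, which frees stored cholesterol, at 0.798 against 0.174, and Pltp, a phospholipid carrier, at 0.811 (0.947 and 0.449 in the runs) against 0.231 (0.222 and 0.281), which is under 2-fold in the second run. The fatty acid carriers Fabp4 and Fabp5 and the lipid enzyme Lpin3 were lower. Abcb11 and Dgat2l6 were not analysed here.

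Cytokine genes and their receptors were higher in 11 of 17 compared genes and lower in 4, with a median ratio of 22.1. Tnfrsf11a, which encodes RANK, was at 3.36 against 0.0343, Il6ra at 3.2 against 0.145, and Il1b, the inflammatory cytokine interleukin-1 beta, at 1.03 against 0.00454. Il18rap had 0 UMIs in cells without Ptprc and was at least 215-fold higher in members, counted against a floor of 3 UMIs over that group. The lower genes included Il1r1, the receptor of interleukin-1, at 0.375 against 2.14, and Ptgs2, the inducible prostaglandin synthase, which had 2 UMIs in members and a ratio of 0.0658 (0.00796 to 0.238). Il20, Il24, Csf1 and Faslg were not analysed here.

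Chemokines, nucleotide receptors and their regulators were higher in 7 of 9 and lower in 1, with a median ratio of 25.6. P2ry12 and P2ry13, receptors for extracellular ADP, were at 2.29 against 0.0123 and at 0.166 against 0.000541. Rgs1, which shortens chemokine signaling, was at 0.755 against 0.000974, a 775-fold ratio. The decoy receptor Ackr3 was the lower gene, at 0.201 against 1.55. Ccl20, Cxcr1, Ccrl2 and Adora3 were not analysed here.

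Interferon-response genes were higher in 17 of 20 and lower in 0, with a median ratio of 9.73. Most are members of the Ifi200 family of DNA sensors, which lie side by side on chromosome 1. Ifi207 was at 4.62 in members against 0.171, Ifi204 at 2.27 against 0.0497 and Ifi206 at 0.554 against 0.00195. Mndal and its neighbours in the family are close copies, so the counts of single members are uncertain. Summed over the list, the level was 33.3 in members and 5.69 in cells without Ptprc. Pyhin1, Gbp2, Gbp3, Gbp5, Gbp7 and Ifi44 were not analysed here.

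Leukocyte signaling and adhesion genes were higher in 21 of 26 and lower in 1, with a median ratio of 19.2. Arhgap15, a brake on the GTPase Rac, stood at 17.5 against 0.0449 and Inpp5d, the lipid phosphatase SHIP-1, at 13.9 against 0.540. Cd84, an adhesion receptor of the SLAM family, was at 3.89 against 0.0193. The lower gene was the kinase Ikbke. Cd53, Vav3, Ptpn22 and Cd101 were not analysed here.

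The genes with the highest ratios in this comparison were of several kinds. Of those already given, Fcgr1, Fcgr3, Fcrls, Spi1, Arhgap15, Rgs1, P2ry13 and Slc11a1 are among them. Kynu, an enzyme of tryptophan breakdown, had 78 UMIs in members and 2 in cells without Ptprc, a ratio of 1572 (421 to 13213). Sh2d1b1, an adaptor of SLAM receptors, had 67 and 2 UMIs, a ratio of 1351 (360 to 11382). Others were Slc13a3, Slamf7, Plcb2, Arhgap30, Cd48, Il1rl1, Ifi213, Ifi209 and the unnamed transcript E330020D12Rik, with ratios between 328 for E330020D12Rik and 581 for Slc13a3. Some of these genes stood lower in members than in Ptprc cells without Mrc1. Over both runs these were Kynu at 0.340 against 0.551, Slamf7 at 0.668 against 0.937, Plcb2 at 0.445 against 0.534 and Il1rl1 at 0.240 against 0.358. Against that group the other genes named here had ratios from 1.05 for Ifi209 to 37.3 for Fcrls.

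The genes with the lowest ratios were of other kinds. Xirp2, an actin-binding protein of striated muscle, stood at 0.0175 in members against 0.525, and the potassium channel gene Kcnq5 at 0.109 against 2.77. Tmem163, a zinc transporter, and the potassium channel gene Kcnb2 had 4 UMIs each in members. Pak7, a kinase, had 0 UMIs in members and was at least 16.6-fold lower, counted against a floor of 3 UMIs over the members. Ano3 had 1 UMI in members (ratio 0.0522, 0.00132 to 0.291), Nrarp, a target of Notch signaling, 1 (0.0627, 0.00159 to 0.351), Rgs7 3 (0.0548, 0.0113 to 0.160) and the noncoding transcript 2600014E21Rik 2 (0.0607, 0.00735 to 0.220).

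Integrins, fibronectin and TGF-beta genes, which the study follows in degenerating valves, were lower in 8 of 14 and higher in 2, with a median ratio of 0.416. The higher genes were Itga4, the integrin subunit with which leukocytes bind the vessel wall, at 3.97 against 0.0523, and the activin receptor Acvr2a at 1.81 against 0.736. Fn1, which encodes fibronectin, was lower at 0.846 against 2.77, with a ratio of 0.305 that became 0.110 in members without Egfl7 or any fibroblast gene, and the growth factor gene Tgfb2 was lower at 0.380 against 1.65. In the PI3K and mTOR list, 3 of 12 genes were higher and 2 lower, with a median ratio of 1.15. Inpp5d was higher, as given above, along with Inpp4a and Pip4k2a. The insulin receptor substrate gene Irs1 was lower at 0.0524 against 0.573. Pik3r3, Inpp4b, Lamtor5, Eif4e, Rragb and Rptor were not analysed here. Inflammatory monocyte genes were mixed, with 3 of 10 higher, 5 lower and a median ratio of 0.438.

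The markers of other valve cells were low in members but not absent. Of 9 endothelial markers, 9 were lower and 0 higher, with a median ratio of 0.250. Their summed level was 4.97 in members (5.14 and 4.50 in the runs) and 20.2 in cells without Ptprc (19.4 and 24.3), and Eng was the most abundant in members at 2.09. Egfl7 was found in 18.1% of members and 58.8% of cells without Ptprc. Of 6 fibroblast markers outside the selection, 5 were lower and 0 higher, with a median ratio of 0.202 and a summed level of 3.39 in members (3.98 and 1.79) and 17.6 in cells without Ptprc (18.5 and 12.4). Prg4 was the most abundant of them in members over both runs, at 0.811 (1.09 and 0.0641 in the runs). In the second run Postn stood above it, at 0.801. The genes lower in members include these markers, whose part in the count of lower genes was not tested.

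Other marker lists differed in how much of them members held. Pax3 of the melanocyte list had 0 UMIs, and Mlph stood at 0.0524 against 0.168, so that 2 of 2 compared genes were lower. Of the T and NK cell markers 1 of 2 compared genes, Stat4, was higher, and the list summed to 0.436 in members (0.306 and 0.785 in the runs). Mural markers summed to 0.0131 (0.00600 and 0.0320 in the runs), with Rgs4 at 0 and too few UMIs to compare any. Cardiomyocyte markers summed to 0.323 (0.288 and 0.416), most of it Ttn at 0.240, with Tnni1 and Des at 0 and 2 of 2 compared genes lower. B cell markers summed to 0.0393 (0.0540 and 0), most of it Cr2, and mast cell markers to 0.0175 (0.0240 and 0), with 2 UMIs each of Cpa3 and Hdc, the second of which was the 1 compared gene and was lower. Of the neutrophil markers, S100a8 and S100a9 had 0 UMIs, and of the sum of 0.0873 (0.0660 and 0.144) the largest part was Il1r2, the 1 compared gene, which was higher at 0.0480 against 0.00433. Of the dendritic cell markers, Zbtb46 was lower at 0.558 against 1.92 and Batf3 higher at 0.192 against 0.00509, and the list summed to 0.750 (0.761 and 0.721). Median ratios over these few compared genes were 17.3 for T and NK cells, 0.208 for melanocytes, 0.168 for cardiomyocytes, 0.0962 for mast cells, 11.1 for neutrophils and 19 for dendritic cells. In cells without Ptprc the sums were 0.383 for T and NK cells, 0.295 for melanocytes, 0.0434 for mural cells, 1.36 for cardiomyocytes, 0.0273 for B cells, 0.0919 for mast cells, 0.0272 for neutrophils and 1.93 for dendritic cells. Vcam1, Actc1, Fcer2a, Rag1, Fcer1a and Flt3 were not analysed here.

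**Figure D2:**
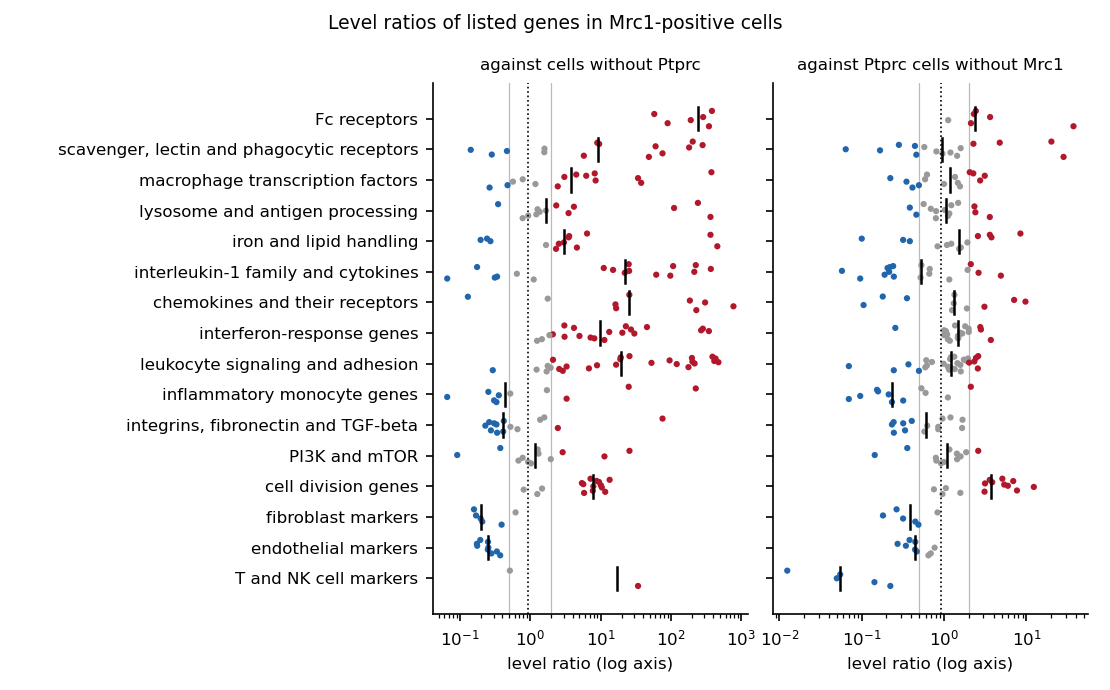
Ratios of levels (log axis) of the genes in 16 lists, members against cells without Ptprc on the left and against Ptprc cells without Mrc1 on the right. Each point is a compared gene outside the selection, red at a ratio of 2 or more and blue at 0.5 or less, short black lines are list medians, and the dotted line is the median over the compared genes (0.929 and 0.919). On the left the Fc receptors lie to the right of the line at 2, and on the right the T and NK cell markers lie to the left of the line at 0.5.

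Promoters of the genes that were higher in members were searched for letters that factors of the ETS family, PU.1 among them, are known to bind. The 4 promoters shown are those of Mrc1 and of 3 genes of the Fc receptor list, each 250 bases before to 50 after the gene's start, from RefSeq on GRCm38.p6, written 5' to 3' on the strand of the gene. Mrc1, like Ptprc named below, is a gene of the selection. Its level in members was set by that choice, so its promoter is given as a description only. Capitals mark AGGAAG on either strand, where the reverse strand reads CTTCCT. The Mrc1 promoter is chr2:14229164-14229463 on the plus strand, that of Fcgr1 is chr3:96293920-96294219, that of Fcer1g chr1:171234300-171234599 and that of Fcrls chr3:87263475-87263774, all 3 on the minus strand.
Mrc1: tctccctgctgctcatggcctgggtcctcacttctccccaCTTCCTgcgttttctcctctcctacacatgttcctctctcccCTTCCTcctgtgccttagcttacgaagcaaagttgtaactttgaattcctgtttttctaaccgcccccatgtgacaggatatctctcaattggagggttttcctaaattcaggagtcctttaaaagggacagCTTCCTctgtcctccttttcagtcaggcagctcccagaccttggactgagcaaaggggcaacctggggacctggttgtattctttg
Fcgr1: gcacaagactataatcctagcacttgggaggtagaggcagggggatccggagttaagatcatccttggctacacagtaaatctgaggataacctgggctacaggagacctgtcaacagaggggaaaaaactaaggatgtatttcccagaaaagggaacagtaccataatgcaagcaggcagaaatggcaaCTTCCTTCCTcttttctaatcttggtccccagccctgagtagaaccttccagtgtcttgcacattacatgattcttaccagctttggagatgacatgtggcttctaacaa
Fcer1g: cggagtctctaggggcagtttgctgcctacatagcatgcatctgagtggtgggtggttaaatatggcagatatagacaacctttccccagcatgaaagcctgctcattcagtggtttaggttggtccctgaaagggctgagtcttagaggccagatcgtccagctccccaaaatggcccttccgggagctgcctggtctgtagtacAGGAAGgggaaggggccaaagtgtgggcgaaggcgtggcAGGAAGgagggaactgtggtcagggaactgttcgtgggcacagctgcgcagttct
Fcrls: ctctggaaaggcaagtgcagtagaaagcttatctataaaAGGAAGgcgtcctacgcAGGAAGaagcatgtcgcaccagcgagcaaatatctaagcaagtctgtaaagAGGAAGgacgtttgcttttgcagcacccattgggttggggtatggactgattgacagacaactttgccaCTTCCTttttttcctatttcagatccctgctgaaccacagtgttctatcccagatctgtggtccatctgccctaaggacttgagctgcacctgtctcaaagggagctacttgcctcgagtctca
The letters occurred 3 times for Mrc1, 2 times each for Fcgr1 and Fcer1g and 4 times for Fcrls. Among promoters searched in the same way but not shown, those of Mertk and Tnfrsf11a held the letters 0 times, that of P2ry12 1 time, and the 2 of Ptprc 3 times and 1 time.

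Of the matrix genes, 2472 had a promoter in the RefSeq table, and 38.8% of them held AGGAAG in at least 1 promoter. Among genes compared with cells without Ptprc the share was 39.2% of 1793. It was 47.7% of the 306 genes higher in members, 39% of the 374 lower genes and 36.8% of the 1113 others. Among the 123 genes at least 10-fold higher it was 54.5%, and among the 119 genes higher than in Ptprc cells without Mrc1 it was 43.7%. The shorter GGAAG, which lies within AGGAAG, was in 82% of the higher genes and 80.6% of the compared genes, and the longer GAGGAAG, which contains it, in 21.6% and 17.3%. TGANTCA, the letters of the AP-1 family with N for any base, was in 9.15% of the higher and 9.89% of the lower genes, against 6.75% of the compared genes, and in 13.8% of the genes at least 10-fold higher. These shares describe letters in a window of 300 bases and not binding.

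Ptprc cells without Mrc1 were the nearer comparison, since both groups hold the leukocyte antigen. Against them, members held more of single receptors and transporters such as Fcrls, Siglec1, Tlr5, Mertk and Slc40a1, and less of the T cell genes and of most inflammatory monocyte genes. Of 2076 genes compared, 163 were higher in members (7.85%) and 397 were lower (19.1%), with a median ratio of 0.919. In both runs taken alone, 99 of the higher and 244 of the lower genes passed the same ratio. Against the 263 of these cells that held fewer than 2 fibroblast genes, as members do, 147 of 1940 genes were higher and 295 were lower.

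Fcrls was higher, at 1.69 in members (1.53 to 1.87) against 0.0454 (0.0196 to 0.0895), or 37.3-fold, which became 14.6-fold with the mean over cells, where Fcna at 45.0, Siglec1 at 19.4 and Tlr5 at 17.8 lay above it. Within the first run it was at 1.99 against 0.0422 and within the second at 0.897 against 0.0521. Tlr5 was at 0.641 against 0.0227, a ratio of 28.2, with members at 0.618 and 0.705 in the runs. Siglec1 was 20.1-fold higher. Fcna, a lectin of the complement system, had 33 UMIs in members and 1 in the other cells, a ratio of 25.4 (4.24 to 1032), and Npl, which breaks down sialic acid, 88 and 3, a ratio of 22.5 (7.46 to 111), which became 8.50 with the mean over cells.

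The other genes of the 12 highest were of several kinds. Adam33, a membrane protease, was 11.9-fold higher, Epb41l1, a link between membrane and cytoskeleton, 9.60-fold, the zinc transporter gene Slc39a12 9.53-fold, and Tmem37 9.07-fold. Pdgfc, a growth factor for mesenchymal cells, was at 1.74 in members (1.53 and 2.31 in the runs) against 0.199 (0.228 and 0.139), or 8.76-fold. P2ry13 had 38 UMIs against 3 (ratio 9.73, 3.09 to 49.3), and the transcript Gm13184 41 against 3 (10.5, 3.35 to 53.0).

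By list, 5 of 6 Fc receptors were higher and 0 lower, with a median ratio of 2.37. Against the cells limited in fibroblast genes 3 of 6 were, with a median ratio of 1.94. The ratio of Fcgr1 fell from 2.43 to 1.46 with the mean over cells and to 1.49 with at least 2 UMIs of Ptprc in both groups. With neither group holding Egfl7 or a fibroblast gene, which was chosen after seeing the data, more calls were lost. The ratios there were 1.19 for Fcgr1, 1.02 for Fcer1g, 1.44 for Fcgr2b and 1.93 for Fcgr3, while Fcrls kept its call. Scavenger and phagocytic receptors were split, 4 of 15 higher (Siglec1, Tlr5, Mertk and Sirpa) and 5 lower, with a median of 0.957. Mertk stood at 7.94 against 1.68 (1.49 to 1.88). The dendritic cell lectin receptor Ly75 had 3 UMIs in members and a ratio of 0.0640 (0.0126 to 0.203). Among transcription factors 4 of 14 were higher (Zeb2, Nfatc2 and Spi1 among them) and 4 lower, and the median was 1.18. Zeb2 was at 26.9 against 8.64, Spi1 at 2.36 against 1.15. Against the cells limited in fibroblast genes 3 of 14 were higher and 4 lower, with a median of 1.03. The ratio of Spi1 fell from 2.05 to 1.72 there, to 1.87 with the mean over cells and to 1.29 with at least 2 UMIs of Ptprc in both groups, so its call did not hold.

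Iron and lipid genes were higher in 4 of 13, with 3 lower and a median ratio of 1.53. Slc40a1 was 8.45-fold higher, at 0.576 against 0.0681, Pltp 3.76-fold at 0.811 against 0.216 but 1.44-fold in the second run, Slc11a1 3.59-fold and Blvra 2.58-fold. Fabp4, whose level in members was 0.0393 against 0.392, was among the lower. Lysosome genes were higher in 3 of 14 (Slc11a1, Acp2 and Ctsa) and lower in 2, with a median of 1.07. Against the cells limited in fibroblast genes 2 were higher and 2 lower, the median was 0.933 and the ratio of Ctsa fell from 2.34 to 1.97. Ctss, which set members apart from the cells without Ptprc, was at 5.21 against 3.51, a ratio of 1.48.

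Chemokine and nucleotide receptor genes were higher in 3 of 10 (P2ry13, P2ry12 and Rgs1) and lower in 3, with a median ratio of 1.33. P2ry12 was 7.09-fold higher, at 2.29 (2.63 and 1.39 in the runs) against 0.324 (0.363 and 0.243). Interferon-response genes were higher in 3 of 20 (Ifi207 and Ifi204 among them) and lower in 1, with a median of 1.48. Leukocyte signaling genes were higher in 5 of 27 and lower in 4, with a median of 1.22, but against the cells limited in fibroblast genes 2 were higher and 6 lower, with a median of 1.08. These shares lie nearer to those over the compared genes than in the comparison with cells without Ptprc.

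Cytokine genes were lower in 8 of 17 and higher in 3 (Tnfrsf11a, Il6ra and Il1a), with a median ratio of 0.520. Against the cells limited in fibroblast genes 9 of 16 were lower and 2 higher, and the ratio of Il1a fell to 1.66. That of Il6ra fell from 2.62 to 1.93 with the mean over cells, while Tnfrsf11a was 4.90-fold higher. Il18r1, through which lymphocytes respond to interleukin-18, was at 0.0524 against 0.908, and Il2ra, a chain of the interleukin-2 receptor, at 0.100 against 0.528. Of the inflammatory monocyte genes, 7 of 11 were lower and 1 was higher, with a median ratio of 0.233. They included S100a4 at 0.0436 against 0.284, S100a6 at 0.218 against 1.38 and Thbs1 at 0.223 against 0.954. The summed level of the list was 8.15 in members (6.58 and 12.4 in the runs) against 13.5 (8.01 and 24.7). S100a8, S100a9 and Mmp9 were at 0 in both groups, and Chil3 was not analysed here.

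T and NK cell markers were lower in 5 of 5 compared genes, with a median ratio of 0.0549. Their summed level of 0.436 in members stood against 3.53 (2.85 and 4.91 in the runs), and the most abundant in members was Stat4 at 0.214. Cd247, the zeta chain of the T cell receptor, had 2 UMIs in members and 123 in the other cells, a ratio of 0.0125 (0.00150 to 0.0461). Cd28, Icos and Ctla4, which tune T cell activation, had 2, 5 and 2 UMIs in members, and Xcl1 had 0. Cd2 and Lef1 were not analysed here. The part of T and NK cells among the Ptprc cells without Mrc1 in the genes lower in members was not tested.

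Others of the 12 lowest genes were the T cell factor Gata3, with 2 UMIs in members (ratio 0.0394, 0.00461 to 0.152), and the T cell adaptor Sh2d2a, with 1 (0.0452, 0.00108 to 0.288). Zfp831 and Eya2 had 0 UMIs in members and were at least 26.5-fold and 16.5-fold lower. Kcnq5, Tmem163 and 2600014E21Rik, low against the cells without Ptprc, were low here too, with Kcnq5 at 0.109 against 2.66.

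Several of the calls in this comparison depended on how it was made. Of 43 called genes followed through 9 alternatives, 30 kept their call throughout and 13 lost it in at least 1. Among the latter were Fcgr1, Fcgr2b, Fcgr3, Fcer1g, Spi1, Sirpa, Il6ra, Inpp5d, Ifi207 and Pltp of the higher genes and Fn1 and 2600014E21Rik of the lower ones. Against the cells without Ptprc, 49 of 50 called genes followed through 10 alternatives kept their call, and Pltp did not.

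Fibroblast and endothelial transcripts also differed. Fibroblast markers outside the selection were lower in 5 of 6, with a median ratio of 0.383 and a summed level of 3.39 against 11.8 (13.9 and 7.64 in the runs). Against the cells limited in fibroblast genes, where the sum was 5.74, 2 of 5 were lower. Endothelial markers were lower in 6 of 9, with a median ratio of 0.448 and sums of 4.97 and 10.9 (11 and 10.9). In the integrin, fibronectin and TGF-beta list 6 of 14 were lower and 0 higher, with a median ratio of 0.601 (4 of 13 and 0.787 against the cells limited in fibroblast genes), and in the PI3K and mTOR list 2 of 12 were lower and 1 was higher, with a median of 1.08. Fn1 was at 0.846 against 2.65, with a ratio of 0.508 in the first run and 0.189 in the second. Of the other markers, 1 of 2 cardiomyocyte genes, 1 of 1 neutrophil genes and 1 of 2 dendritic cell genes were lower and 0 were higher, 0 of 1 melanocyte genes differed, and mural, B cell and mast cell genes had too few UMIs. Median ratios were 0.341, 0.206, 0.901 and 0.659 for the first 4 of these lists. The sums of these lists in Ptprc cells without Mrc1 were 0.596, 0.261, 1.82, 0.108, 0.00568, 0.0511 and 0.0227 in the same order. The part of fibroblast and endothelial transcripts in these differences was not tested.

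How members varied among themselves was described along their Mrc1 UMIs. The bands of 1, 2 to 4, 5 to 14 and 15 or more UMIs, and the genes followed along them, were chosen after values had been seen. They held 36, 82, 149 and 103 members, with median UMIs of 4457.5, 4915.5, 5276 and 6520. The 263 Ptprc cells with no Mrc1 and fewer than 2 fibroblast genes, with a median of 4835, stood beside them. Deeper cells hold more UMIs of any gene, and the part of depth in the bands was not tested.

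Fcrls was at 0.0435 in the cells with no Mrc1 (0.0159 to 0.0946), then at 0.533, 0.467, 1.44 and 2.95 (2.58 to 3.36) along the bands. Siglec1 was at 0.0435, then 0.356, 0.0890, 0.456 and 1.37 (1.12 to 1.65), where the first band rests on 6 UMIs and the next on 4. P2ry12 went from 0.377 to 1.07, 1.2, 2.01 and 3.52, and Tnfrsf11a from 0.789 to 1.60, 1.96, 3.17 and 4.78. In the band of 15 or more, Fcrls was at 3.25 in the first run and 1.86 in the second, Siglec1 at 1.43 and 1.14, P2ry12 at 3.85 and 2.34 and Tnfrsf11a at 5.26 and 3.05, with 19 members in the second run. In the band of 5 to 14 Siglec1 was at 0.605 in the first run but had 1 UMI among the 34 members of the second.

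Zeb2 and Pid1 also rose along the bands, from 16.8 to 33.0 and from 21.9 to 40. Spi1 and Arhgap15 had no steady direction. Spi1 was at 1.38 with no Mrc1 and at 2.73, 2.74, 2.30 and 2.14 along the bands, and Arhgap15 at 15.6, then 18.9, 14.6, 19.2 and 16.9. Ctss was lowest in the band of most Mrc1, at 3.34 against 7.47, 5.90 and 6.06 in the bands before it. Il1b fell from 2.25 at 1 UMI of Mrc1 to 1.62, 1.29 and 0.103 (0.0445 to 0.203). Within the first run these 4 levels of Il1b were 2.65, 0.740, 0.756 and 0.0493, and within the second 1.83, 3.61, 2.78 and 0.299, so the band with most Mrc1 was the lowest in each run. Cd247 had 0 UMIs in the bands of 1, of 2 to 4 and of 15 or more.

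**Figure D3:**
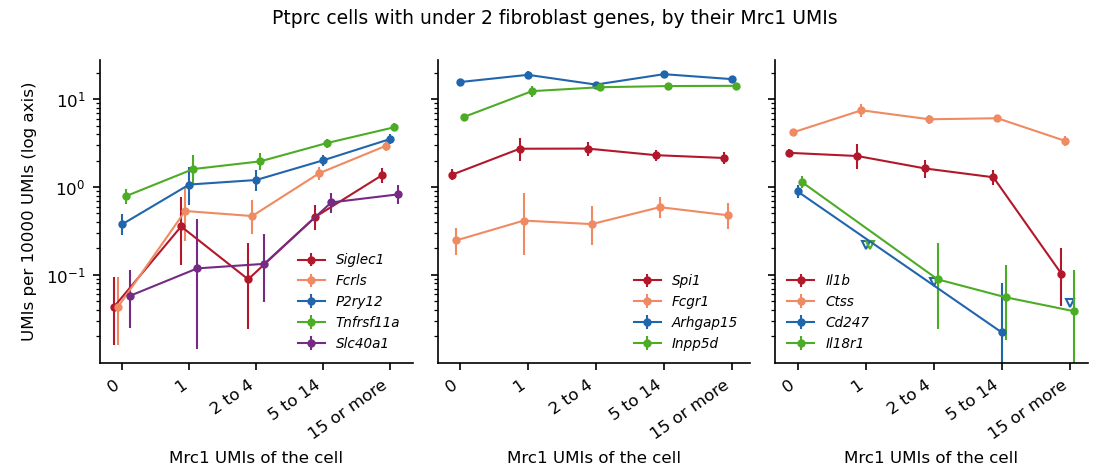
Levels (UMIs per 10000 UMIs, log axis) of 13 genes in Ptprc cells with fewer than 2 fibroblast genes, by the number of Mrc1 UMIs of the cell. Points are levels with 95% exact Poisson intervals, and open triangles are upper limits of that interval where a band had 0 UMIs. Siglec1, Fcrls, P2ry12, Tnfrsf11a and Slc40a1 are highest at 15 or more Mrc1 UMIs, and Il1b is lowest there, at 0.103.

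Siglec1, which the selection did not use, was found in 96 members (25.9%) and not in 274. Of those with it, 81 were in the first run and 15 in the second, and their median depth was 6323.5 UMIs against 5152. Of 1536 genes compared between these members, 61 were higher and 119 lower in those with Siglec1. Mrc1 was at 30.3 with Siglec1 and 14.4 without. Fcna was higher, with 30 UMIs against 3, a level of 0.441 against 0.0186. Npl was at 0.809 against 0.205, Pdgfc at 3.43 against 1.03, Slc39a12 at 1.06 against 0.323, Slc40a1 at 0.985 against 0.403, Pltp at 1.34 against 0.589 and Fcrls at 2.68 against 1.28. Each of these genes had the higher level with Siglec1 within both runs, and the genes were named after their values were seen. Some did not reach the ratio of 2 in the first run. There, with and without Siglec1, Mrc1 was at 29.9 and 16.4, Pdgfc at 2.27 and 1.17, Pltp at 1.28 and 0.785 and Fcrls at 2.91 and 1.54. In the second run Pdgfc was at 8.17 and 0.713 and Pltp at 1.57 and 0.143.

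Over both runs, members with Siglec1 held less Il1b, at 0.471 against 1.26, less of the hyaluronan receptor Cd44, at 2.35 against 6.26, and less Rgs1, at 0.338 against 0.931. In the first run Il1b was at 0.476 with Siglec1 and 0.651 without, and in the second at 0.450 and 2.65. Cd44 was at 2.56 and 4.98 in the first run and at 1.5 and 9.19 in the second. Thinned to 2000 UMIs, 36.8% of members with Siglec1 and 22.3% of those without had a UMI of Fcrls, 14.7% and 5.47% of Slc40a1, and 5.26% and 12.5% of Il1b. Spi1 differed less, at 2.06 against 2.49. Fibroblast transcripts were mixed: Prg4 was at 0.162 with Siglec1 and 1.09 without (0.165 and 1.54 in the first run, 0.150 and 0.0407 in the second), Prelp at 0.176 and 0.434, and Col5a2 at 0.823 and 0.782. Members with Siglec1 also held less of the division genes Cenpf, with 3 UMIs against 90, and Tpx2, with 2 against 58. The part of these cells in the split was not tested.

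Il1b was uneven over cells and runs. Members held 235 UMIs of it in 62 cells, and 5 of those cells held 37.0% of the UMIs. Ptprc cells without Mrc1 held 340 UMIs in 34 cells, and 5 cells held 80.3%. In the first run the level was 0.594 in members (0.482 to 0.723) against 0.228 (0.150 to 0.332), and in the second 2.18 (1.83 to 2.58) against 5.43 (4.85 to 6.07). The level thus turned its direction between the runs, while the share of cells with Il1b was the higher in members in both. That share was 10.7% against 6.70% in the first run and 35.6% against 21.8% in the second. In the second run 5 cells held 87.2% of the Il1b UMIs of the Ptprc cells without Mrc1. Il1rn, the natural antagonist of interleukin-1, had 16 UMIs in 7 members and 51 UMIs in 6 Ptprc cells without Mrc1.

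Members of the runs differed in further genes. Of 1521 genes compared, 98 were higher and 97 lower in members of the second run. Interferon-response genes were lower there: Ifi203 was at 4.72 in the first run and 1.84 in the second, Ifi213 at 2.86 and 0.705, Ifi206 at 0.690 and 0.192, and Zbp1, a sensor of nucleic acids, at 0.462 and 0.0961. The summed level of the list was 37.2 and 22.8 in members, 21.8 and 20.5 in Ptprc cells without Mrc1 and 5.74 and 5.38 in cells without Ptprc. Higher in the second run were Il1b, Rgs1 at 0.510 and 1.41, the chemokine receptor gene Cxcr4 at 0.114 and 0.449, and the factor Cebpb at 0.210 and 0.849. In cells without Ptprc the second run was also the higher for Il1b, at 0.00218 and 0.0172, for Rgs1, at 0.000642 and 0.00276, for Cebpb, at 0.0435 and 0.310, and for B2m, at 0.926 and 2.62, but Cxcr4 was at 0.00796 and 0.00828. What the runs stand for is not known, and their part in these values was not tested.

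**Figure D4:**
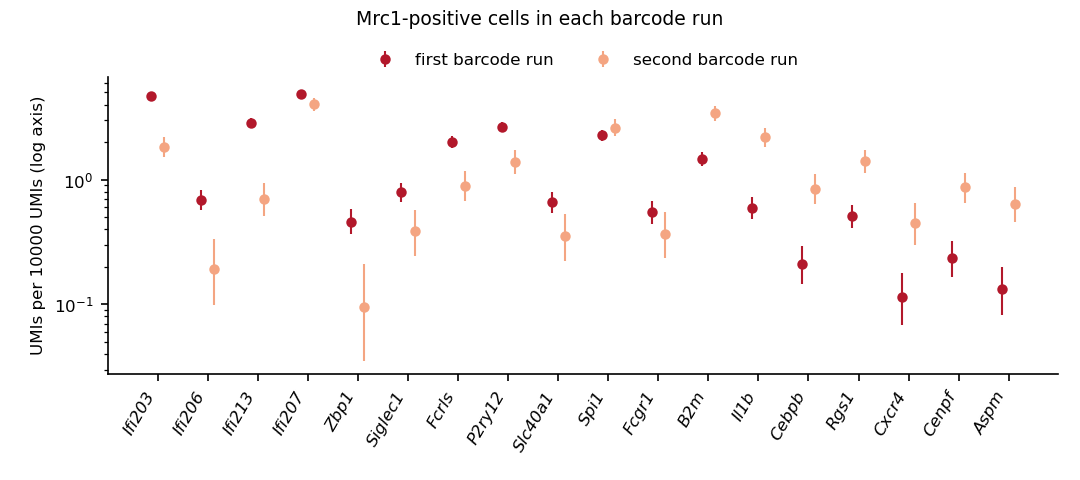
Levels (UMIs per 10000 UMIs, log axis) of 18 genes in the 280 members of the first and the 90 members of the second barcode run, with 95% exact Poisson intervals. Ifi203, Ifi206, Ifi213 and Zbp1 are higher in the first run, Il1b, Cebpb, Rgs1 and Cxcr4 in the second, and Spi1 is at 2.27 and 2.61.

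Cell division genes were more abundant in members than in either other group. Of 15 compared genes 12 were higher and 0 lower than in cells without Ptprc, with a median ratio of 7.75, and 10 of 14 were higher and 0 lower than in Ptprc cells without Mrc1, with a median of 3.71. Cenpf, a protein of the kinetochore, was at 0.406 (0.327 to 0.497) against 0.0564 and 0.0795, and Aspm, which organises the spindle poles, at 0.270 against 0.0343 and 0.0454. Pcna, Mcm6 and Smc4, which act in DNA replication and chromosome packing, did not pass the ratio. Cenpe was not analysed here.

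A small number of cells carried these UMIs. Over the 14 genes of the list other than Pcna, Mcm6, Smc4 and Cks1b, a choice made after values had been seen, 15 members held UMIs of at least 3 genes, which is 4.05% (2.29 to 6.6). The shares were 0.351% in cells without Ptprc (0.265 to 0.457) and 1.29% in Ptprc cells without Mrc1 (0.352 to 3.26). With cells thinned to 2000 UMIs they were 3.13% (1.57 to 5.54), 0.298% and 1.10% (0.228 to 3.19).

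Over the whole cell division list the summed level was 4.20 in members (3.01 and 7.37 in the runs), 1.67 in cells without Ptprc and 2.40 in Ptprc cells without Mrc1. The summed level of the 14 chosen genes was 2.59 in members (1.60 and 5.22 in the runs), 0.324 in cells without Ptprc (0.335 and 0.268) and 0.693 in Ptprc cells without Mrc1 (0.675 and 0.729). The 15 members held 91.9% of the members' UMIs of these genes. Without them, and without the cells of the same kind in each other group, the levels were 0.222, 0.113 and 0.190. Their median depth was 9911 UMIs. Mrc1 was at 18.5 in these 15 members and 19.2 in the others, Spi1 at 2.36 and 2.37, Mertk at 3.30 and 8.22, and Zeb2 at 14.6 and 27.7. Egfl7 was found in 20% of them. The part of depth in these shares was not tested beyond the thinning.

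**Figure D5:**
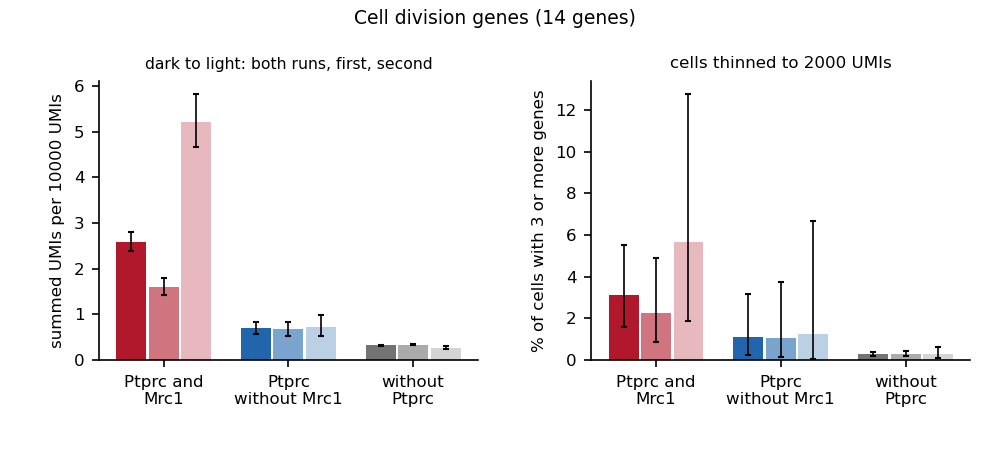
Summed level of 14 cell division genes (left, UMIs per 10000 UMIs with 95% exact Poisson intervals) and share of cells with UMIs of 3 or more of them after thinning to 2000 UMIs (right, 95% exact binomial intervals), by group. Bars run from dark to light for both runs, the first and the second barcode run. Members stand at 2.59 on the left and 3.13% on the right.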

How the data were processed

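Per the submitters' processing notes, reads were processed with Cell Ranger 7.1.0 on mm10. For 3 listed samples the authors deposited 1 pooled matrix of natural log values, made by scaling UMIs to 10000 per cell and adding 1 before the log. UMIs were recovered from them as whole numbers within 0.02 (100% of values above 0), and 1 gene with empty values was left out. Members and lists were chosen with earlier results of these data known. The 5 genes of the selection were left out of the genes that were compared and counted, and their levels are given as a description. Named genes are from those of the selection, the markers and the lists, the 20 highest and 10 lowest ratios against cells without Ptprc among genes past 2-fold in both barcode runs, and the 12 highest and 12 lowest against Ptprc cells without Mrc1 past 1.5-fold. Other genes were named after their values were seen. A count of 0 was set to 3 UMIs in ratios, which then are bounds. Intervals are exact at 95%. For shares of cells, each cell was thinned at random without replacement to 2000 UMIs (seed 1). No doublet caller was used, and alternatives without cells holding Egfl7 or fibroblast genes, or without the deepest 5% of cells, stand in its place. The alternatives changed the limits on fibroblast genes, Egfl7, Mrc1 and Ptprc UMIs, depth, thinning, the barcode run, the comparison cells, the minimum of UMIs and the averaging over cells. The alternatives without Egfl7 or any fibroblast gene (members alone or both groups), without barcodes of both runs and without the deepest cells were chosen after seeing the data. Gene positions are from GENCODE M21 (GRCm38), promoters from RefSeq. The steps were tested on simulated data. Python 3.11.15, numpy 2.4.6, scipy 1.17.1, pandas 2.3.3 and matplotlib 3.10.9 were used.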

Additional observations from a re-analysis of the deposited data

How the results depend on the processing

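The number of members lay between 265 and 413 over the alternatives tried on both barcode runs together. The share of cells, 2.26%, was 1.94% with none of the fibroblast genes allowed, 2.52% with no limit on them, 1.85% without cells with Egfl7, 1.86% with cells thinned before the selection, 1.97% in the first barcode run and 4.16% in the second. It was 1.62% without Egfl7 or any fibroblast gene, an alternative chosen after seeing the data. The 486 genes lower than in cells without Ptprc became 323 with a minimum of 30 UMIs, where fewer genes were compared, and 312 in the second run alone. Against Ptprc cells without Mrc1, the 163 higher and 397 lower genes became 105 and 245 with a minimum of 30 UMIs, 102 and 242 with at least 2 UMIs of Ptprc in both groups, and 103 and 254 with neither group holding Egfl7 or a fibroblast gene, which was chosen after seeing the data. Apart from the minimum of UMIs, the cause was not tested. The other 43 of 58 values of the share, the number and the gene counts stayed within their interval or within 1.5 times. Of 920 values of single genes, 715 lay within the main value's counting interval, 205 moved outside it and 0 of the called ones turned their direction. No paired analysis was possible because the barcodes carry no sample. The level of Il1b, which was not called against Ptprc cells without Mrc1, turned its direction in that comparison between the barcode runs. The share of cells with Il1b was the higher in members in both runs. Depth is limited: levels under 0.0131 in members or 0.0170 in Ptprc cells without Mrc1 fall below 3 UMIs.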
